A study of Homo sapiens with 4 samples.

Results

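Simple and ductal keratins are the intermediate filament proteins of single-layered epithelia. A list of 10 keratin genes, most of them of this kind and some of hair or epidermis, was followed here in Hep-G2 cells: KRT7, KRT8, KRT18, KRT19, KRT20, KRT23, KRT80, KRT81, KRT86 and KRT10. They were taken by symbol from the 62893 genes of the deposited tables, and all 10 were found. Hep-G2 is a human hepatoma-derived line. The study compared cells with a scramble shRNA (SHC002) to cells with an shRNA against FTO (TRCN0000246247), an RNA demethylase, both at passage 21. The labels name 1 shRNA for each group, so an effect of this shRNA other than on FTO cannot be told apart from that of FTO loss. Each group has 2 deposited tables of read counts, called run 1 and run 2.

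Keratin filaments are built from pairs of a type I and a type II protein, so that each cell needs a partner of each type. KRT8 (type II) with KRT18 (type I) is the pair of the hepatocyte, in which it is normally the sole keratin pair. Bile duct cells add KRT7 (type II) and KRT19 (type I), and pathologists use both to tell ductal from hepatocellular growth. KRT20 is a type I keratin of the gut lining, and KRT23 and KRT80 are less studied epithelial keratins of type I and type II. KRT81 and KRT86 are type II hair keratins, and KRT10 is the type I keratin of differentiating epidermis.

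The scramble runs held 20047409 and 20474554 reads assigned to genes, and those of shFTO 20220271 and 20706611. Runs of a group differed by no more than sampling noise over the 13359 (scramble) and 13674 (shFTO) genes with at least 20 reads (chi-square per degree of freedom 1.019 for scramble, p = 0.0648, and 1.013 for shFTO, p = 0.142, chi-square test), so they were pooled and counted as 1 sample, and nothing in the labels names separate cultures. With 1 sample on each side, no p-value is given for any gene. Levels are in CPM (read counts scaled to a common library size by TMM), and intervals are exact 95% intervals of the split of reads, which cover counting error only. FTO had 594 and 550 reads with scramble and 116 and 128 with shFTO, 5.32-fold lower (4.63 to 6.13). Hepatocyte markers were present in every run, and the summed level of 7 of them was 33666 to 33696 CPM in scramble and 15419 to 15497 CPM in shFTO. Of these, the carrier protein genes TTR, ALB, APOA1 and TF were lower by 19.8-fold (16.3 to 24.1), 3.20-fold (3.19 to 3.22), 2.82-fold (2.77 to 2.87) and 2.03-fold (2.02 to 2.04). In bulk RNA, a smaller share of cells making a transcript and less of it per cell cannot be told apart.

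The hair keratins KRT81 and KRT86 lie side by side on chromosome 12 and are so alike that reads can be assigned to either. Their coding sequences, of 1518 and 1461 bases in GENCODE transcripts, were identical at 93.6% of the 1457 aligned positions, with an unbroken identical run of 605 bases. The lines below show why KRT81 and KRT86 can still be told apart at some places and not at others. The first pair of lines is the 90-base window in which they differ most, with the 19 differing bases in capitals, and the last pair is the start of the identical run, both 5′ to 3′ on the coding strand.
KRT81, coding bases 1237 to 1326: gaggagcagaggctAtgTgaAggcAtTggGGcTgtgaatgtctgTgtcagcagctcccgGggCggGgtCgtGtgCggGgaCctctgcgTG
KRT86, coding bases 1237 to 1326: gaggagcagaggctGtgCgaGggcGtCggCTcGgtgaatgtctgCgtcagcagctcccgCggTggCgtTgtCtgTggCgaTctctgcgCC
KRT81, coding bases 61 to 150: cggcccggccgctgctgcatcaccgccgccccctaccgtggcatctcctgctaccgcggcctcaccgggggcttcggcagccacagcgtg
KRT86, coding bases 61 to 150: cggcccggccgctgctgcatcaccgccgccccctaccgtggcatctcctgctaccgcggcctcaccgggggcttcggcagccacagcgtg
Of all windows of 50 bases in KRT81 transcripts, 43.7% occurred on either strand in a transcript of another gene, and for KRT86 the share was 37.5%. The share was 24.5% for KRT18 and 16.1% for KRT8. KRT18 shared windows with 45 other genes, 43 of which bear a keratin pseudogene or clone name. Windows shared with KRT8, whose exons overlap those of KRT18 on the opposite strand, made up 12.7% of all KRT18 windows. For KRT7 the share was 5.7%, and 5.5% of its windows were shared with the antisense gene KRT7-AS. The share was 3.1% for KRT23, 1.0% for KRT19, 0.4% each for KRT80 and KRT10, and 0 for KRT20. How reads with several matching places, or in overlaps of genes, were treated is not given in the sources used here. Levels of KRT8, KRT18, KRT81 and KRT86 may thus be too low or too high, depending on that handling. Their ratios between groups may be affected as well, by an amount that was not tested.

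The hepatocyte pair KRT8 and KRT18 differed in opposite directions. KRT8 held 43790 and 43850 scramble reads against 52989 and 54636 with shFTO, or 2318 and 2271 against 2477 and 2491 CPM. The runs of the groups did not overlap, but runs of a group count as 1 sample. The difference was small, at 1.08-fold higher in shFTO (1.07 to 1.09). KRT18, its type I partner, held 6526 and 6807 reads in scramble and 5327 and 5462 in shFTO, or 345 and 353 against 249 CPM in each shFTO run. It was 1.40-fold lower in shFTO (1.37 to 1.44). The ratio of KRT18 to KRT8 reads, which does not depend on library scaling, was 1.52-fold lower in shFTO (1.48 to 1.56). In the annotation KRT8 and KRT18 share 525 exonic bases on opposite strands, and the strand setting of the counting is not known.

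KRT19, the type I keratin of ducts, was the abundant member with the largest difference. Its reads numbered 3797 and 3914 in scramble and 8500 and 8724 in shFTO, or 201 and 203 against 397 and 398 CPM. Pooled, KRT19 was 1.97-fold higher in shFTO (1.92 to 2.02). With plain library sizes in place of scaled ones it was 2.22-fold higher, which would put KRT19 past a 2-fold limit. Set against KRT8 in the same library, KRT19 was 1.82-fold higher in shFTO (1.77 to 1.87), and set against KRT18 it was 2.76-fold higher (2.66 to 2.86).

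KRT7, the type II keratin that accompanies KRT19 in ducts, had 0 reads in each scramble run. The shFTO runs held 34 and 45 KRT7 reads, or 1.59 and 2.05 CPM. With 3 reads in all taken as the scramble limit, KRT7 was at least 23.2-fold higher, and 0 reads allow up to that floor in scramble. The bound leaves out the counting error of the shFTO reads, so it is not an interval like those of other genes. Without scramble run 1 or run 2 the floor falls on a single run, and the bound was 11.7-fold or 11.5-fold. The antisense gene KRT7-AS, which shares 282 exonic bases with KRT7, had no read in any of the 4 runs. In level KRT7 remained far below KRT19 in shFTO, at 0.445 against 170 CPM per kilobase of exon.

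**Figure D1:**
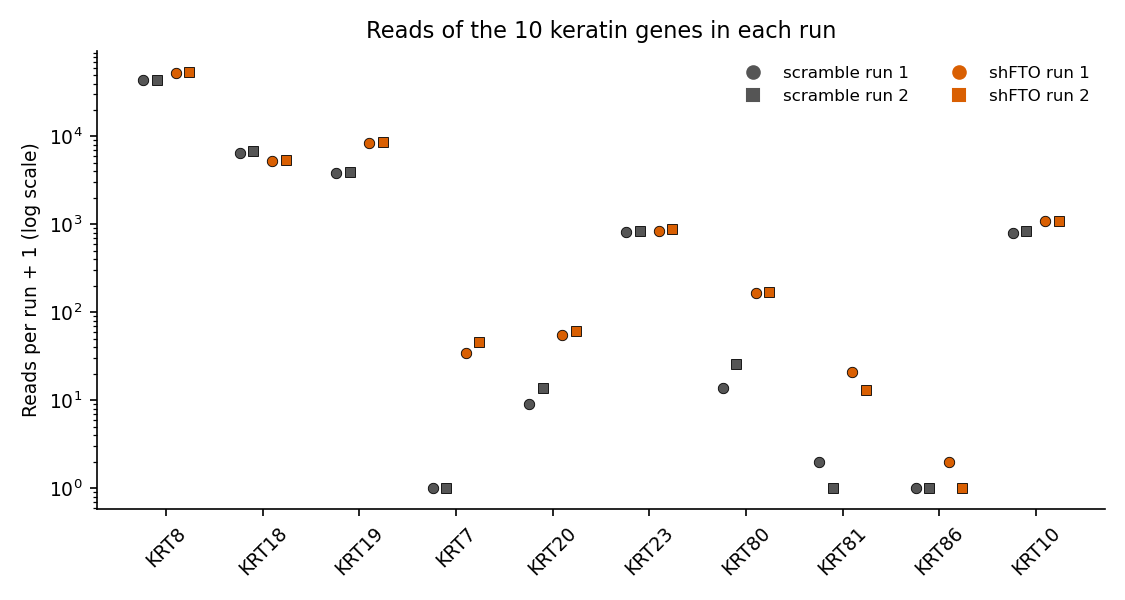
Reads of each of the 10 keratin genes in each run, plus 1, on a log scale; grey points are scramble and orange points shFTO, circles run 1 and squares run 2. KRT8, KRT18, KRT19, KRT23 and KRT10 have at least 807 reads in every run, whereas KRT7, KRT20, KRT80 and KRT81 go from at most 25 reads per scramble run to between 12 and 169 per shFTO run.

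Among the keratins that are rare in liver cells, KRT80 and KRT20 were higher in shFTO. KRT80 held 13 and 25 reads in scramble against 164 and 169 in shFTO, and its level was 0.688 and 1.29 CPM against 7.66 and 7.70 CPM. The pooled difference was 7.73-fold (5.51 to 11.1), and it was 5.94-fold without scramble run 1 and 11.2-fold without scramble run 2. KRT20 held 8 and 13 reads in scramble and 55 and 61 in shFTO, a 4.87-fold higher level (3.04 to 8.16). For both genes every shFTO run lay above every scramble run, but runs of a group count as 1 sample.

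Of the hair keratins, KRT81 had 1 and 0 reads in scramble and 20 and 12 in shFTO. The ratio was 28.2 with a wide counting interval of 4.71 to 1149, since it rests on 1 scramble read. Without scramble run 1, which held that read, KRT81 was at least 4.76-fold higher against 3 reads, with no counting error of the shFTO reads included. Without scramble run 2 the ratio was 13.9. KRT86 had 1 read, in shFTO run 1, and none elsewhere, so no ratio is given. The nearly identical transcripts printed above make the split of these few reads between KRT81 and KRT86 uncertain.

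KRT23 and KRT10 differed little. KRT23 held 813 and 852 reads in scramble and 850 and 886 in shFTO, or 43.0 and 44.1 against 39.7 and 40.4 CPM, 1.09-fold lower (1.02 to 1.16). With plain library sizes KRT23 was 1.04-fold higher instead, so its direction rests on the scaling. KRT10 held 807 and 846 reads against 1100 and 1102, and was 1.17-fold higher (1.10 to 1.25). The opposite-strand neighbour KRT10-AS1, which shares 56 exonic bases with KRT10, was 1.08-fold higher (0.970 to 1.20).

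**Figure D2:**
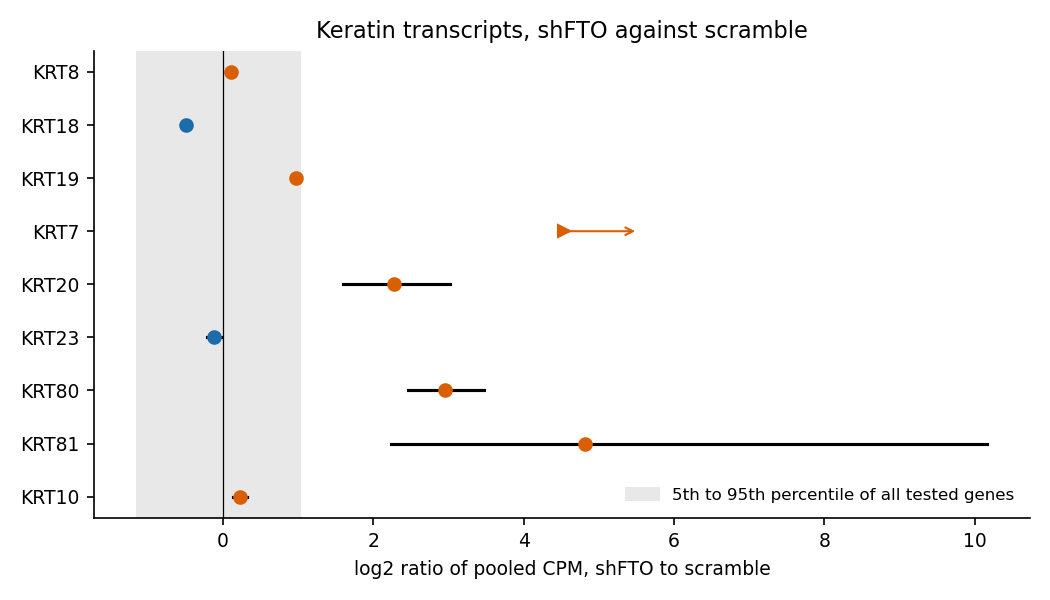
log2 ratio of pooled CPM, shFTO to scramble, for the 9 keratin genes with enough reads, orange where higher in shFTO and blue where lower; bars are exact 95% counting intervals, the triangle with an arrow is the lower bound for KRT7, and the grey band runs from -1.14 to 1.03, the 5th and 95th percentiles of all tested genes. KRT20, KRT80, KRT81 and KRT7 lie to the right of the band, and KRT8, KRT18, KRT19, KRT23 and KRT10 lie within it.

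Counted by a 2-fold limit, 4 of the 10 genes (KRT7, KRT20, KRT80 and KRT81) were higher in shFTO and none was lower. Over the 13767 genes with enough reads to test, 5.18% passed that limit upward and 6.19% passed it downward, with a median log2 ratio of 0.01. The 9 keratins other than KRT86 passed the filter on low counts, but KRT7 and KRT81 passed through the shFTO runs alone and KRT20 had only 1 scramble run over the minimum, so for these 3 genes a difference was a condition of being counted. Of the other 6, KRT80 was past the limit. By edgeR's quasi-likelihood test, whose spread is that between the runs of a group, 7 members were called higher and KRT18 and KRT23 lower. That test called 33.2% of all tested genes higher and 33.4% lower, so such a call separates these libraries and says little of a member. With plain library sizes the share of calls that were higher was 68.8%, against 49.9% with scaled ones.

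The make-up of the keratin pool shifted toward KRT19. The 10 genes together held 55755 and 56307 reads with scramble and 69040 and 71097 with shFTO, from 0.275% to 0.278% of all reads in scramble and 0.341% to 0.343% in shFTO. Per kilobase of exon, KRT8 made up 59.6% and 58.7% of the pool in scramble and 55.5% and 55.6% in shFTO. KRT18 made up 19.0% and 19.5% against 11.9% in each shFTO run, and KRT19 15.2% and 15.4% against 26.2% in each. The order of the leading members in scramble was KRT8, KRT18 and KRT19, and in shFTO KRT19 stood above KRT18. KRT10 and KRT23 followed, in an order that in scramble depends on the length given to each gene. The KRT19 to KRT18 ratio per kilobase was 0.802 and 0.792 with scramble and 2.20 in both runs of shFTO. KRT7, KRT20, KRT80, KRT81 and KRT86 each remained at or below 0.272% of the pool in every run.

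The ratio of KRT7 plus KRT19 to KRT8 plus KRT18, ductal over hepatocyte keratins per kilobase, was 0.194 and 0.197 in scramble and 0.390 and 0.389 in shFTO. Nearly all of the ductal side was KRT19. The summed hepatocyte markers given above were lower in the same runs, and their part in this ratio was not tested. The balance between filament types moved less. Type I over type II members came to 0.678 and 0.703 in scramble and 0.790 and 0.786 in shFTO, since the lower KRT18 was set against the higher KRT19. Levels per kilobase depend on the length given to each gene: without length scaling the KRT19 to KRT18 ratio was 0.582 and 0.575 with scramble and 1.60 in both runs of shFTO.

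**Figure D3:**
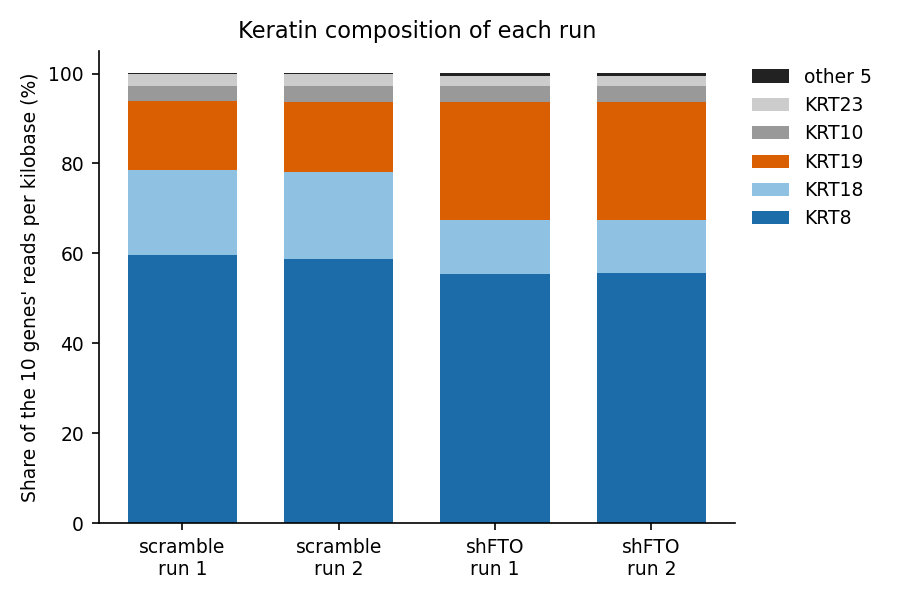
Share of each keratin gene in the summed reads per kilobase of the 10 genes, as stacked bars for each run; "other 5" stands for KRT7, KRT20, KRT80, KRT81 and KRT86. The KRT19 segment takes 15.2% and 15.4% in the scramble runs and 26.2% in both shFTO runs, and the KRT18 segment narrows from 19.0% and 19.5% to 11.9%.

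In chromosomal order, differences could be read only for the part of each keratin cluster that held reads. Of the 27 keratin genes on chromosome 12, 18 had no read in any run, and the 5 with at least 20 reads were KRT80, KRT7 and KRT81 at one edge and KRT8 and KRT18 at the other. KRT80, KRT7, KRT86 and KRT81 are consecutive protein-coding genes there in the GENCODE order, and the 3 of them with reads enough for a ratio (KRT80, KRT7 and KRT81) were all higher in shFTO, by the values given above. KRT7 and KRT81 passed the filter on low counts through the shFTO runs alone, so for them a difference was a condition of being counted. Just outside that edge ATG101 was 1.09-fold lower (1.03 to 1.16) and NR4A1, an orphan nuclear receptor gene, 2.53-fold lower (2.22 to 2.89). TAMALIN, the next gene outward, was 1.86-fold higher (1.56 to 2.21). Beyond KRT18 the translation factor gene EIF4B was 1.19-fold lower (1.17 to 1.20). These neighbours were picked for their place, with their values in view.

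On chromosome 17, 10 of 28 keratin genes had no read, and 6 had at least 20. KRT15, a keratin of basal epithelial cells, lies next to KRT19 and held 8 and 10 reads in scramble and 23 and 21 in shFTO, 2.15-fold higher (1.22 to 3.96). KRT17, a basal and stress keratin further along, held 3 and 1 reads against 20 and 22, 9.26-fold higher (3.36 to 35.5). KRT20 and KRT23 are also next to each other, yet KRT20 was 4.87-fold higher and KRT23 1.09-fold lower. KRT15 and KRT17 were the sole tested genes among the 45 keratins outside the list of 10. Both were tested through the shFTO runs alone, so for them a difference was a condition of being counted. Of those 45, 28 had no read and 15 had 1 to 9.

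**Figure D4:**
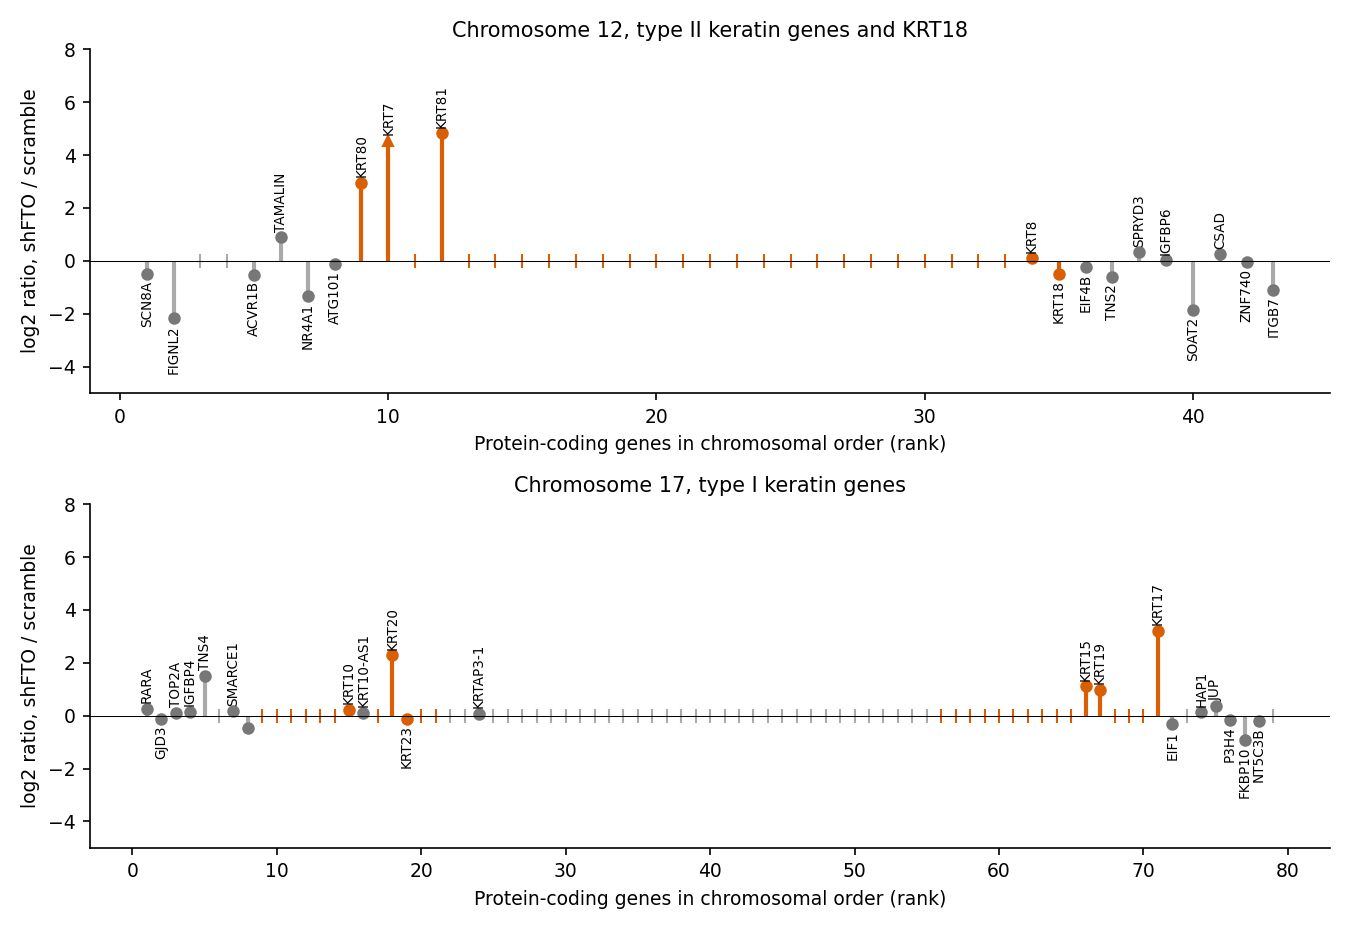
log2 ratio, shFTO to scramble, of protein-coding genes in chromosomal order through the keratin clusters of chromosomes 12 and 17 and the genes on either side; orange marks keratins, grey other genes, ticks on the zero line are genes with fewer than 20 reads or no ratio, the triangle is a lower bound, and the point with no name is a gene without a symbol. KRT80, KRT7 and KRT81 stand at 2.95 to 4.82 at the left edge of the chromosome 12 cluster, while KRT8 and KRT18 at its right edge are at 0.11 and -0.49. KRT7, KRT81, KRT15 and KRT17 passed the filter on low counts through the shFTO runs alone.

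Other epithelia that use these keratins were looked for by their markers. Of the squamous and basal markers KRT5, KRT14 and KRT6A had no read in any run and TP63, the master regulator of basal cells, had 1 read in scramble run 1 and 1 in shFTO run 2. The list's summed level was 0.570 to 0.635 CPM in scramble and 2.01 CPM in each shFTO run, all but these TP63 reads from KRT15 and KRT17. Among 7 intestinal markers CDX1 and GPA33 had no read, CDX2, a regulator of gut epithelium, had 3 and 1 reads in scramble and 0 and 2 in shFTO, and the list's sum of 368 to 374 CPM in scramble and 354 to 359 CPM in shFTO was almost wholly VIL1, villin. Of 7 fibroblast markers COL3A1, DCN, LUM and THY1 were at 0, while COL1A1, a collagen chain, had 2 and 3 reads in scramble and 61 and 74 in shFTO, 23.8-fold higher (9.95 to 74.5). The list's sum was 23.1 to 23.7 CPM in scramble and 6.45 to 7.07 CPM in shFTO, and most of it in scramble was PDGFRB, a growth factor receptor gene, which was 6.42-fold lower (5.42 to 7.66). Endothelial PECAM1 and KDR had no read, but TIE1, an endothelial receptor, had 13 and 17 reads in scramble and 42 and 40 in shFTO, 2.41-fold higher (1.57 to 3.79), and that list's sum was 1.06 to 1.35 CPM against 2.14 to 2.20 CPM. The leukocyte gene PTPRC had no read, and CD14, a monocyte gene, was 1.67-fold lower (1.06 to 2.66). COL1A1 passed the filter through the shFTO runs alone. A part of such cells in the differences of KRT20 or KRT17 was not tested beyond these values.

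Biliary markers outside the keratins lay on both sides of no difference. Of 26 genes listed 24 were matched and 17 tested, of which 1 was past 2-fold upward and 6 downward, with a median log2 ratio of -0.43. In all, 7 were higher and 10 lower by any amount, and the list's summed level was 3074 to 3075 CPM in scramble and 3631 to 3652 CPM in shFTO. SOX4, a transcription factor of duct formation, was 2.92-fold higher (2.64 to 3.24), with 249 and 247 reads against 783 and 862. PROM1, a progenitor surface protein, was 5.41-fold lower (3.18 to 9.73), and BICC1, an RNA-binding protein of ducts and kidney tubules, 3.76-fold lower (3.19 to 4.44). ONECUT1 was 2.60-fold lower (2.13 to 3.19) and the tight junction gene CLDN4 2.33-fold lower (2.17 to 2.51). Abundant markers, named after their values were seen, went both ways. ANXA4, an annexin, was 1.68-fold higher (1.66 to 1.71) and LAMA5, a laminin chain, 1.41-fold higher (1.37 to 1.44). The adhesion gene EPCAM was 1.29-fold higher (1.26 to 1.32) and SPP1, osteopontin, 1.20-fold higher (1.18 to 1.22). SOX9 was 1.48-fold lower (1.44 to 1.52), at 305 against 206 CPM, and DCDC2 1.85-fold lower (1.79 to 1.91), at 239 against 129 CPM. TFF3 and GGT1, also named after their values were seen, were 3.93-fold (2.08 to 7.93) and 2.03-fold (1.90 to 2.16) lower. PROM1 and TFF3 passed the filter on low counts through the scramble runs alone, so for them a difference was a condition of being counted. CFTR, the chloride channel of ducts, had 1 read in each shFTO run and none in scramble, and AQP1, a water channel, had none in any run.

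The linkers that tie keratin filaments to desmosomes differed in both directions, more of them higher than lower. Of 20 genes 13 were tested, PPL alone was past 2-fold, and the median log2 ratio was 0.22. In all, 9 were higher and 4 lower by any amount. Periplakin, PPL, a plakin that binds keratin ends, was 2.99-fold higher (2.78 to 3.23), with 443 and 448 reads in scramble and 1476 and 1548 in shFTO. Desmoplakin, DSP, the main anchor of keratins at desmosomes, was 1.43-fold lower (1.41 to 1.45) at 1057 against 740 CPM. PERP, a membrane protein of desmosomes, was 1.92-fold lower (1.86 to 1.99).

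Chaperones and enzymes that act on keratins differed in both directions. All 27 were tested, 1 was past 2-fold upward and 0 downward, and the median log2 ratio was 0.01. Past the limit was PRKCE, a protein kinase C that phosphorylates KRT8 and KRT18, at 2.38-fold higher (1.86 to 3.07). HSPA8, a constitutive chaperone, and YWHAE, an adaptor of the family that binds phosphorylated KRT18, were at 1365 against 1371 CPM and 1004 against 971 CPM. Within the limit, and named after their values were seen, the autophagy adaptor gene SQSTM1 was 1.90-fold higher (1.83 to 1.96) and the small heat shock protein gene HSPB1 1.45-fold higher (136 against 197 CPM), while the kinase gene MAPK14 was 1.46-fold lower (1.40 to 1.52) and the ubiquitin gene UBB 1.45-fold lower (1.43 to 1.47).

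Among other intermediate filament genes the abundant lamins differed little. Of 15 matched genes 7 were tested, 1 was past 2-fold upward and 0 downward, with a median log2 ratio of 0.29. The lamin genes LMNB2 and LMNA were 1.32-fold higher (1.29 to 1.34) and 1.17-fold lower (1.15 to 1.20). The gene past the limit was BFSP1, a lens filament protein, at 10 and 5 reads against 35 and 31, and vimentin, VIM, the mesenchymal filament gene, had 1 read in all 4 runs, in shFTO run 1. INA, a neuronal filament gene with too few reads to be tested, had 2 and 5 reads in scramble and 15 and 8 in shFTO. BFSP1 had only 1 scramble run over the minimum of the filter and so needed the shFTO runs to be tested. BFSP1, INA and VIM were named after their values were seen.

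Of 25 regulators of epithelial genes 14 were tested, with 1 past 2-fold upward (KLF4), 1 downward (FOS) and a median log2 ratio of 0.18. FOS, a subunit of the AP-1 factor, was 5.34-fold lower (3.50 to 8.41), while JUN, its partner, was 1.58-fold higher (1.52 to 1.65). YAP1 was at 216 against 224 CPM. KLF4, chosen after its value was seen, was 2.08-fold higher with a counting interval from 0.995 to 4.67 that includes 1, and it passed the filter through the shFTO runs alone.

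**Figure D5:**
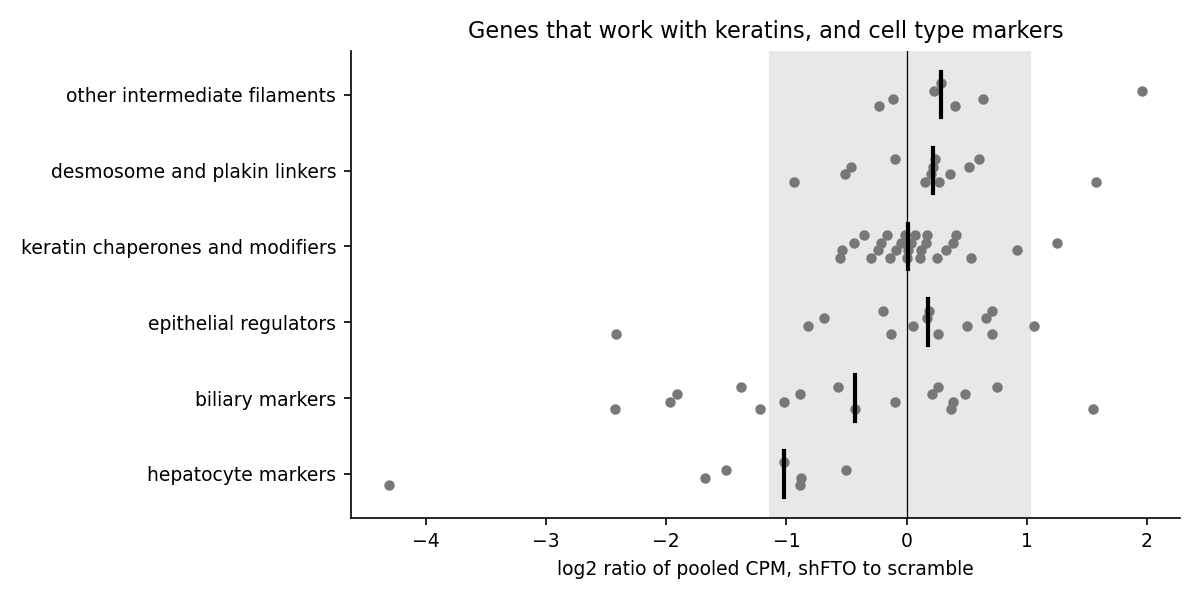
log2 ratio, shFTO to scramble, of the tested genes of 6 lists, 1 point per gene; the black bar is the list's median and the grey band runs from -1.14 to 1.03, the 5th and 95th percentiles of all tested genes. The medians run from -1.02 for hepatocyte markers and -0.43 for biliary markers to 0.29 for other intermediate filaments.

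Promoter sequences of 300 bases around an annotated start, the first listed for each gene, were at hand for 3 of the 10 genes (KRT8, KRT10 and KRT20), from RefSeq on GRCh38.p14. They are shown to set KRT20, higher in shFTO, beside KRT8 and KRT10, which differed little. Capitals mark matches on either strand, and positions count from that annotated start. The TATA box was searched as TATAAA. The GC box was searched as GGGCGG. The site of the AP-1 factor was searched as TGANTCA, where N is any base. The CCAAT box was searched by the letters of its name.
KRT20, chr17:40885193-40885492, minus strand: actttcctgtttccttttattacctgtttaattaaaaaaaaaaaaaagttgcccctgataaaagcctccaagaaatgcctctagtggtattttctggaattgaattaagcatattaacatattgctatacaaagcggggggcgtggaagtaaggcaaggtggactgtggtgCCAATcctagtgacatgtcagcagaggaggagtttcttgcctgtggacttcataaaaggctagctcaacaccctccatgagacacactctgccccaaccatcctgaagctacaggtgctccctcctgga
KRT10, chr17:40822565-40822864, minus strand: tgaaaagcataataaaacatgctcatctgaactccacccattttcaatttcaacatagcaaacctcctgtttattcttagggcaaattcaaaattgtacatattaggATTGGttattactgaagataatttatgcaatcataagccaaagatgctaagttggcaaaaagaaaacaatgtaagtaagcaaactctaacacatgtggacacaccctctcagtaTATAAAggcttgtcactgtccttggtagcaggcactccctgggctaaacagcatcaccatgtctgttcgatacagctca
KRT8, chr12:52926420-52926719, minus strand: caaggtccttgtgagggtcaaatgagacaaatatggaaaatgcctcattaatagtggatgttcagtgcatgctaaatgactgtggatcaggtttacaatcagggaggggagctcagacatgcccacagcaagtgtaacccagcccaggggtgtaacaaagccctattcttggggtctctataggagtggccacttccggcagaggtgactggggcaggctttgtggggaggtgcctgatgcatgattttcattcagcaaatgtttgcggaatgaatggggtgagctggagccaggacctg
KRT20 had a CCAAT box at position -79, and KRT10 a TATA box at -29 and a CCAAT box at -143. No match was found in the KRT8 window. Whether that window lies at the start from which most KRT8 reads come was not tested, so it may not be the promoter in use. Of 34796 promoters of that length 11.6% held a TATA box, 44.9% a GC box, 7.73% an AP-1 site and 34.6% a CCAAT box. None of the 3 windows held an AP-1 site or a GC box.

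FTO acts on methylated adenosine in RNA, which is laid down in a short motif whose commonest form is GGACT. In the longest annotated transcript of each member GGACT occurred 7 times in KRT80 (1.80 per kilobase). It occurred 3 times each in KRT81 (1.56 per kilobase) and KRT86 (1.35), and 2 times each in KRT8 (0.699) and KRT18 (0.958). GGACT occurred 1 time each in KRT7 (0.57 per kilobase), KRT19 (0.719) and KRT20 (0.576). It was absent from the longest transcripts of KRT23 and KRT10. Over 13337 tested genes the median was 0.926 per kilobase, with quartiles of 0.567 and 1.38. Methylation itself was not measured in these libraries, and a match does not show a methylated site.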

How the data were processed

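RNA sequencing libraries from total RNA were deposited as 4 tables of unnormalized counts, 1 whole number for each Ensembl gene. The tools named in the submitters' processing notes are HTSeq 0.6.0 and TopHat2 2.1.1, with hg19 as the build. The annotation, strand setting, read length and handling of reads with several matches are not given in the sources used here. Totals ran from 20047409 to 20706611 reads.

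Groups and run numbers were taken from the sample titles. Runs were compared by a chi-square test over genes with at least 20 reads, then pooled. Folds are ratios of pooled CPM with TMM scaling (edgeR 4.0.16, R 4.3.3) and exact 95% Clopper-Pearson intervals, or exact conditional intervals for ratios of 2 genes. A gene with 0 reads was set to 3. A fold of 2 served as the limit. Genes passing filterByExpr (13767) were fitted with edgeR's quasi-likelihood test, two-sided, at a Benjamini-Hochberg adjusted p of 0.05, and its calls were used as counts alone. The test was also run on simulated counts that held sampling noise alone, which is no check of it where separate cultures differ.

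Symbols came from the gene name table and GENCODE 29. Lengths, gene order and exon overlaps came from the positions in GENCODE 29, which is on another build than the reads. The 10 genes and all lists were chosen with earlier results of these data known. Named from each list were up to 4 genes each way with the largest log2 ratio among those at least 2-fold different with a mean of at least 1 CPM, or else the 2 most abundant, and keratins with at least 20 reads. Alternatives were other scalings, no filter, DESeq2 1.42.0, omission of single runs, a block on replicate number, and other gene lengths.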

Additional observations from a re-analysis of the deposited data

How the results depend on the processing

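The count of keratin genes at least 2-fold higher was 4, and it remained 4 when any 1 run was left out, with no filter, with DESeq2's size factors and with the replicate block; it was 5 with upper quartile scaling and with plain library size, by KRT19. The count at least 2-fold lower was 0 under each of these. KRT23 turned from a log2 ratio of -0.12 to 0.05 with plain library size, which moved the median of all tested genes by 0.17. In the replicate block fit KRT19 was at 0.98 and KRT18 at -0.49, and the number of genes called by edgeR was 9216 against 9170 without it; runs with the same number did not deviate together (correlation 0.00164), so the samples share only a number. Leaving out 1 run gave 8365 to 8521 calls, and DESeq2 gave 6880. The ratio of ductal to hepatocyte keratins, shFTO to scramble, was 1.99 with the union of exons, 1.94 with the longest transcript and 1.91 without length scaling, where the length given to each gene is the one thing that differs. Depth limits KRT7, KRT81 and KRT86, with at most 45 reads in a run.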

Other observations

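Pseudogene copies of KRT8 and KRT18 also collected reads. The 51 listed copies of KRT8 held 72 and 64 reads in scramble and 113 and 111 in shFTO, and the 67 copies of KRT18 held 20 and 14 against 14 and 23. Among them KRT8P33 had 4 and 5 reads in scramble and 17 and 19 in shFTO, a 3.53-fold higher level (1.67 to 8.32), and KRT8P12, with the most reads, was 1.43-fold higher (1.02 to 2.04). KRT8P33 passed the filter on low counts through the shFTO runs alone, so for it a difference was a condition of being counted. Both copies were picked after their values were seen. Whether these are transcripts of the copies or reads of KRT8 placed there was not tested.

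Among the genes that flank the keratin clusters, SOAT2, which esterifies cholesterol, was 3.65-fold lower (3.25 to 4.11) beyond KRT18 on chromosome 12, with 626 and 587 reads against 204 and 173. On the KRT10 side of the chromosome 17 cluster TNS4, a focal adhesion protein gene, was 2.85-fold higher (2.33 to 3.51), with 61 and 64 reads against 209 and 195. Past KRT17, JUP, which encodes the desmosomal protein plakoglobin, was 1.29-fold higher (1.23 to 1.35), and FKBP10 was 1.91-fold lower (1.86 to 1.96). These genes were picked for their values.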
